A study of Homo sapiens with 19 samples.

Results

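The genes described here are the 10 genes of the MHC class II antigen presentation pathway that the array carries under the names HLA-DMA, HLA-DMB, HLA-DOA, HLA-DPA1, HLA-DRA, HLA-DRB3, HLA-DRB4, HLA-DRB5, CD74 and CIITA. They were taken by gene name from the non-control features of the array and are represented by 22 probes, out of 31033 gene names and 50238 probes in all. The cells were THP-1, a monocytic line grown from the blood of a patient with acute monocytic leukaemia, differentiated into macrophage-like cells with 30 nM PMA (a phorbol ester) for 16 to 18 h and rested for 2 to 3 h. Flasks then received 0.1 mM vit C or were left untreated (UT), in RPMI medium with 10% serum, and RNA was taken 8, 24, 48 and 96 h later. All 8 groups had therefore been exposed to PMA. There were 10 UT arrays (2, 3, 2 and 3 at the successive time points) and 9 vit C arrays (3, 2, 2 and 2), each a 1-colour Agilent hybridisation of total RNA. A single cell line was used, and the p-values measure the spread between these arrays and no wider population.

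MHC class II molecules are pairs of an alpha and a beta chain (HLA-DR, HLA-DP, HLA-DQ) that present peptides from endocytosed material to CD4 T cells. CD74, the invariant chain, fills the peptide groove of newly made molecules and escorts them to the endosome, where HLA-DM (the chains HLA-DMA and HLA-DMB) exchanges the remnant of CD74 for a peptide and HLA-DO (HLA-DOA is its alpha chain) restrains HLA-DM. Transcription of these genes is driven by the coactivator CIITA, which does not bind DNA itself and acts on a complex of RFX, CREB and NF-Y proteins assembled over the X and Y boxes of each promoter. Interferon-gamma is the classical inducer of CIITA in macrophages.

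The DR beta genes are close relatives, and a chromosome carries HLA-DRB1 with a single further expressed gene among HLA-DRB3, HLA-DRB4 and HLA-DRB5, or with none. The probes for HLA-DRB5 and HLA-DRB4 are shown because they bear on which transcript each signal belongs to. Capitals mark the longest exact run of letters common to both, which is 20 bases. The letters before that run also match apart from scattered mismatches, so its length understates how alike the probes are.
HLA-DRB5, its second probe: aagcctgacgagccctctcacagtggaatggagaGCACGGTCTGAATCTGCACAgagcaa
HLA-DRB4: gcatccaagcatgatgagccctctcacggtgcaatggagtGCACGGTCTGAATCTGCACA
HLA-DRB3, its first probe: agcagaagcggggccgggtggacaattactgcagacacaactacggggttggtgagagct
The HLA-DRB3 probe shares no exact run of 15 bases or more with them, a search that does not see matches broken by mismatches. Cross-hybridisation between DR beta transcripts was not tested, nor was it tested which DR beta genes this line carries, so the signals below are those of the named probes and may include a relative's transcript. Probes for HLA-DRB3, HLA-DRB4 and HLA-DRB5 were each well above background on all 19 arrays, though a chromosome carries at most a single gene of that set. Their signals may therefore not be those of separate genes.

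The promoter sequences of HLA-DRB5, HLA-DMA, HLA-DMB, HLA-DOA and CD74 (RefSeq, GRCh38.p14, all on the minus strand) are shown because these genes, known as targets of CIITA, had different profiles below. Each runs over the 160 bases before the annotated start, and capitals mark matches on either strand to the letters AG, 2 bases of any kind, AC, 1 of any kind, GAT (a core of the X box) or ATTGG (the CCAAT box, core of the Y box).
HLA-DRB5, chr6:32530288-32530447: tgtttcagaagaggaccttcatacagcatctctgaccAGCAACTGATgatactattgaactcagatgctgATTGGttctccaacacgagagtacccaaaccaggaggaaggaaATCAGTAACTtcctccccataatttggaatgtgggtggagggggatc
HLA-DMA, chr6:32953098-32953257: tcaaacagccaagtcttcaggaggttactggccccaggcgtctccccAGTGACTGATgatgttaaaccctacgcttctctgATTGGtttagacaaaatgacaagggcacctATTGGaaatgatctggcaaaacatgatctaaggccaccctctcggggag
HLA-DMB, chr6:32941029-32941188: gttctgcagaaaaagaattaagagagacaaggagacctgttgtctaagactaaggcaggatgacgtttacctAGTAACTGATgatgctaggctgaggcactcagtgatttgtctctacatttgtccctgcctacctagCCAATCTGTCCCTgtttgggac
HLA-DOA, chr6:33009592-33009751: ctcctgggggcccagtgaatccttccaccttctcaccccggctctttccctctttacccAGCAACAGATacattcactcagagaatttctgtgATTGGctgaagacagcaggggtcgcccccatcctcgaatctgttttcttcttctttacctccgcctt
CD74, chr5:150412911-150413070: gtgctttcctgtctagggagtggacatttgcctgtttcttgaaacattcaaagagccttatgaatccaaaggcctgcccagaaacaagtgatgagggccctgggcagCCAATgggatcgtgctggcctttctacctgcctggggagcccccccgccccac
An X box core followed by a CCAAT box on the same strand lay 23 bases apart in HLA-DRB5 and 24 bases apart in both HLA-DMA and HLA-DOA. HLA-DMB held the X box core 88 to 79 bases before the start, with a CCAAT box on the other strand that overlapped a second, reverse match to the X box letters. CD74 held a reverse CCAAT box 53 to 49 bases before the start and no match to these X box letters within 250 bases, and both promoters listed for HLA-DPA1 held neither. The letters were chosen with these promoters in view. Over 35116 promoter windows the X box core was found in 1.94%, the CCAAT box in 32% and both in 0.695%, so a match is a description of the sequence and no evidence of binding.

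Not all of these genes could be measured. Values are the log2 processed signal less the log2 of that array's 75th percentile, so that 0 is the brightness of the 75th percentile spot and a difference of 1 is a 2-fold difference in signal. The brightest probe of 7 genes (HLA-DRB5, HLA-DRB3, HLA-DRB4, CD74, HLA-DMB, HLA-DMA and HLA-DOA) was well above background on all 19 arrays, and that of CIITA on 18. The brighter HLA-DPA1 probe was above background on 9 arrays, and the only HLA-DRA probe, for the alpha chain that every DR molecule needs, on 0 of 19. Signals of different probes cannot be ranked against each other, so the HLA-DRA probe gives no measure of the alpha chain relative to the beta chains.

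**Figure D1:**
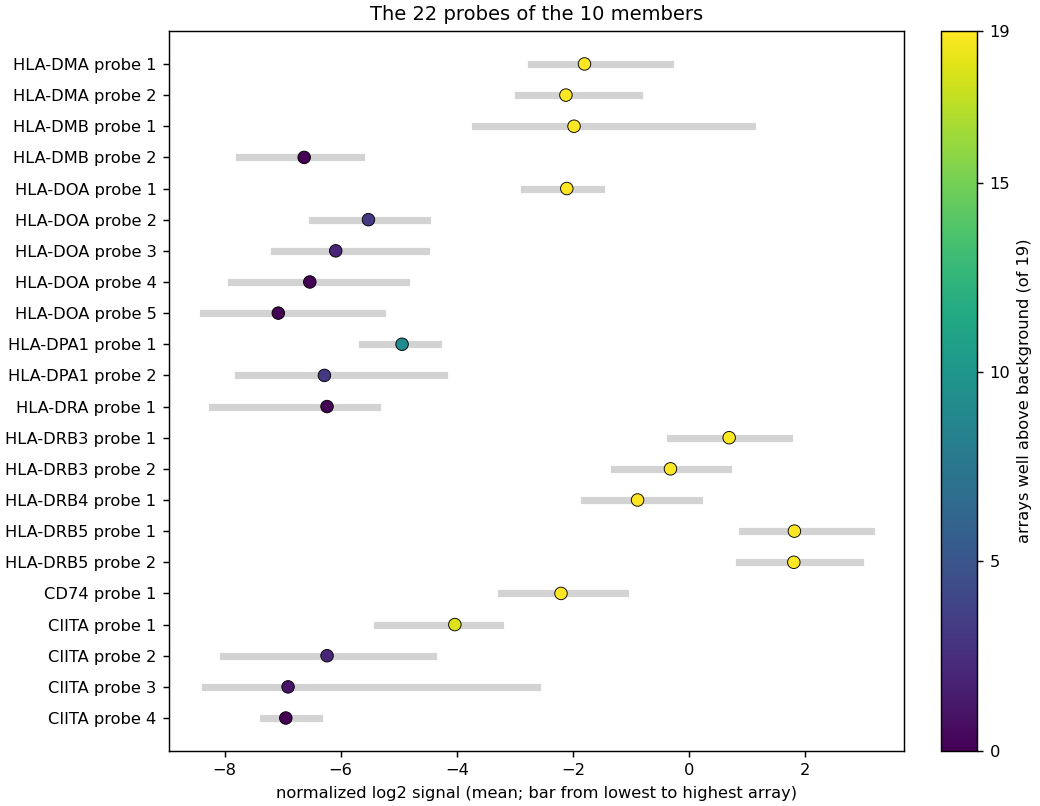
All 22 probes of the 10 genes, with the mean (point) and the range over 19 arrays (line) of the normalized log2 signal; colour gives the number of arrays on which the probe was well above background. The 3 dimmer CIITA probes and the HLA-DRA probe were above background on at most 2 arrays.

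The first question was whether vit C moved these genes at each time point. A gene was called when a probe differed at least 2-fold (1 on the log2 scale) with an adjusted p of at most 0.05. No gene of the 10 was called at 8, 24 or 48 h, where 0.554%, 1.68% and 3.66% of all genes tested were called in either direction. Only 6, 7 and 8 of the 10 entered the test at those times, since genes with probes in opposite directions, CIITA each time, were set aside. At an unadjusted p under 0.05 limma gave 3, 3 and 6 of the genes at those times, where it gave 17.6%, 21.2% and 23.8% of all genes with a probe above background throughout either group. The t-test of the study's methods gave 2, 1 and 6, where it gave 26.7%, 17.4% and 27.4% of all such genes. At 96 h the DR beta genes HLA-DRB5, HLA-DRB3 and HLA-DRB4 and the peptide exchange chain HLA-DMB rose, 4 of 10 where 2.73% of all genes tested were called higher. The first probes of HLA-DRB5, HLA-DRB3 and HLA-DRB4 correlated at r 0.90 to 0.96 over the 19 arrays and may read the same transcripts. The count of 4 may thus hold fewer separate genes. HLA-DRA and HLA-DOA were called lower at 96 h, where 10.1% of all genes were, 12.8% being called in either direction, but on probes that were above background on no array, so no size is given. These 96 h calls rest on 2 vit C arrays against 3 UT arrays and on a spread pooled over all 19 arrays: with the arrays of both groups alone, limma and the t-test each called 0 of the 10 genes, and over all 26298 genes tested limma called 3 (0.0114%) and the t-test 0 (0%). The t-test thus called none of the other genes given below for vit C against UT at 96 h, and limma on both groups alone at most 3 of them. The share of all genes called at 96 h also moved with the processing: it was 5.41% with only probes well above background, 3.89% with quantile normalization, 2.86% with signals floored at 20 and 2.84% with the normexp background correction. No slide held vit C and UT arrays of a like time point. The UT arrays of 8, 24 and 48 h were on slide 1 and the vit C arrays of those hours on slides 2 and 3, so the groups differed by slide there too. Only the UT 96 h group had arrays on both slides 1 and 2. Both vit C 96 h arrays stood on a slide of their own scanned on another day, so treatment and slide cannot be told apart at 96 h.

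**Figure D2:**
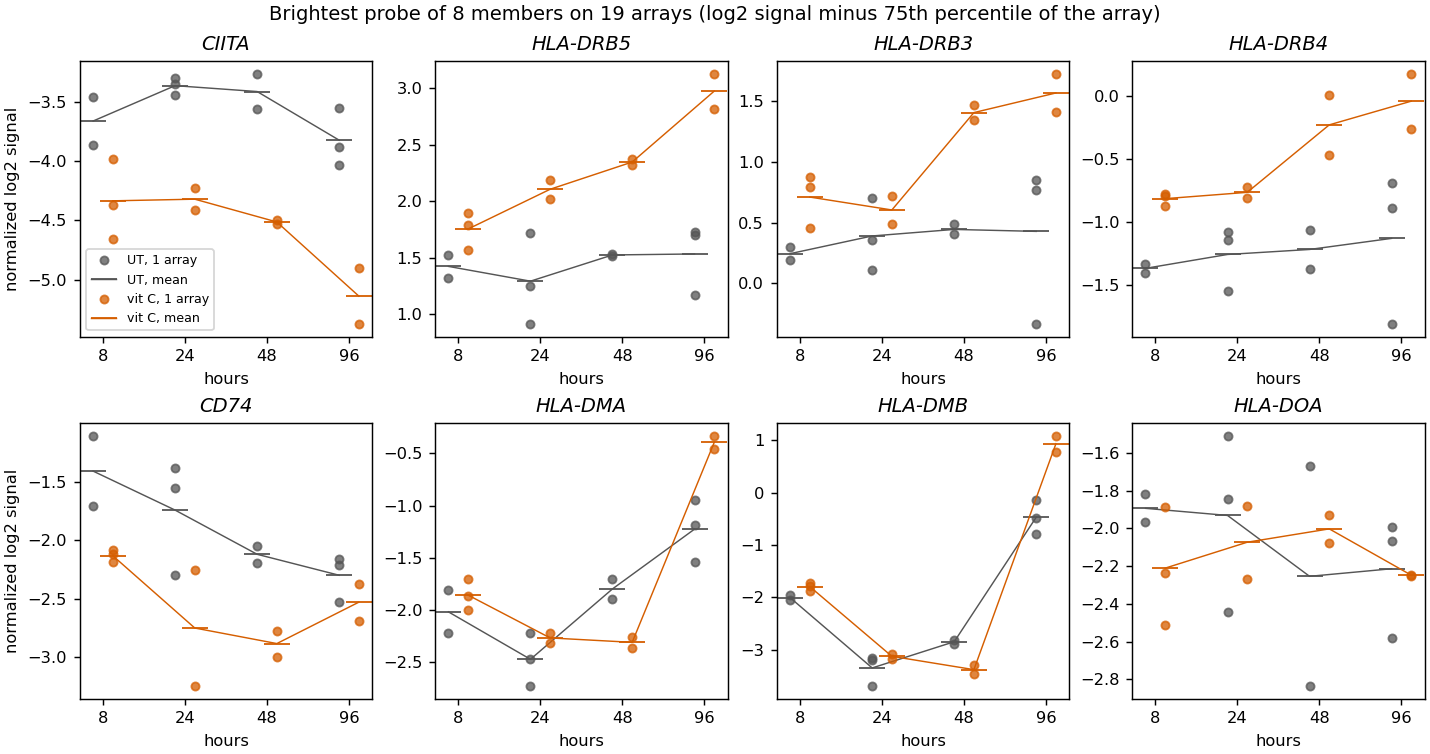
Normalized log2 signal of the brightest probe of 8 genes on each array by hours after vit C addition; each point is 1 array, UT and vit C in separate colours. The HLA-DRB5 points of vit C cells lie above and the CIITA points below all UT points of the same hour.

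HLA-DRB5 is a DR beta chain. In UT cells it read 1.52 and 1.32 at 8 h, 0.91, 1.25 and 1.72 at 24 h, 1.51 and 1.54 at 48 h, and 1.73, 1.70 and 1.17 at 96 h. In vit C-treated cells it read 1.79, 1.57 and 1.90 at 8 h, 2.02 and 2.19 at 24 h, 2.32 and 2.37 at 48 h, and 3.13 and 2.82 at 96 h. The UT values kept to a common range throughout, and the vit C values did not overlap those of UT cells at any time point. At each time point the groups also stood on different slides. The log2 difference was 0.33 at 8 h (adjusted p = 0.636), 0.81 at 24 h (0.106), 0.82 at 48 h (0.113) and 1.44 ± 0.24 (SE) at 96 h, a 2.71-fold higher signal (adjusted p = 0.00335). Averaged over the 4 time points it was 0.85 ± 0.12 (adjusted p = 0.000568), under the 2-fold limit. The second HLA-DRB5 probe gave 1.33 at 96 h (adjusted p = 0.0120) and 0.70 on average (adjusted p = 0.00514), with overlapping groups at 24 h. Whether the size differed between time points did not pass the test over all 4 (adjusted p = 0.255).

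HLA-DRB3 and HLA-DRB4 are the other DR beta chains. HLA-DRB4 in UT cells read -1.40 and -1.33 at 8 h, -1.55, -1.15 and -1.08 at 24 h, -1.37 and -1.07 at 48 h, and -0.89, -0.69 and -1.81 at 96 h. In vit C-treated cells it read -0.80, -0.87 and -0.78, then -0.72 and -0.81, then 0.01 and -0.47, and at 96 h 0.18 and -0.26. No vit C value overlapped the UT values of its time point, which stood on other slides. The difference at 96 h was 1.09 ± 0.29 (adjusted p = 0.0341), and the average over the time points 0.78 (adjusted p = 0.00372).

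The first HLA-DRB3 probe in UT cells read 0.19 and 0.30 at 8 h, 0.11, 0.36 and 0.71 at 24 h, 0.40 and 0.49 at 48 h, and 0.77, 0.85 and -0.33 at 96 h. The vit C values were 0.79, 0.46 and 0.88 at 8 h, 0.72 and 0.49 at 24 h, 1.47 and 1.34 at 48 h, and 1.73 and 1.41 at 96 h. Groups overlapped at 24 h and at no other time. The difference was 0.96 at 48 h and 1.14 ± 0.31 at 96 h (adjusted p = 0.0342), and the second probe gave 1.07 at 96 h (adjusted p = 0.0311). At 48 h the first probe ran from 0.89 to 1.53 over the settings other than left-out arrays. HLA-DRB3 was called higher at 48 h with the intensity trend, quantile normalization and array weights, by its second probe (1.02 in the test as designed). With array weights the 96 h differences of HLA-DRB3 and HLA-DRB4 were 0.85 and 0.86, under the 2-fold limit, and with normexp that of HLA-DRB4 was 0.95. With the replicate number as a block across time points neither passed (adjusted p = 0.0686 and 0.0695). UT 96 h replicate 3 had the lowest DR beta signals of its group. Without that array the 96 h difference was 0.76 for HLA-DRB3 and 0.75 for HLA-DRB4, both under the 2-fold limit, and 1.26 for HLA-DRB5 (adjusted p = 0.00489). By their first probes, none of the 3 was called without vit C 96 h replicate 1 (HLA-DRB5 1.29, adjusted p = 0.0645), and without replicate 2 HLA-DRB5 alone was (1.60, adjusted p = 0.0209).

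CIITA, the class II coactivator, lay on the opposite side. Its brightest probe was dim, with processed signals of 15.8 to 43.0. In UT cells it read -3.86 and -3.46 at 8 h, -3.30, -3.44 and -3.35 at 24 h, -3.26 and -3.56 at 48 h, and -3.55, -3.88 and -4.04 at 96 h. In vit C-treated cells it read -4.37, -4.66 and -3.98 at 8 h, -4.41 and -4.23 at 24 h, -4.53 and -4.50 at 48 h (the latter not above background), and -5.38 and -4.90 at 96 h. Every vit C value was lower than every UT value of its time point, which stood on other slides. The log2 difference was -0.67, -0.96, -1.10 and -1.32 at the successive time points (SE 0.24 to 0.26), and -1.01 ± 0.12 on average. With normexp it was -0.08 at 8 h and -0.49 at 24 h, and with the mean of its 4 probes -0.23 and -0.03.
CIITA was not in the test as designed, since its 4 probes went in opposite directions and the study's methods set such genes aside. With the test kept to probes measured above background throughout at least 1 group, which leaves 1 CIITA probe, it was called lower at 48 h (adjusted p = 0.0235, where 2.2% of genes were called lower), at 96 h (adjusted p = 0.00398, 2.32%) and on average (adjusted p = 9.99e-05, 1.22%). The size depended on the handling of dim signals: with the normexp background correction it was -0.34 at 48 h (adjusted p = 0.644) and -0.94 at 96 h (adjusted p = 0.00235), and with signals floored at 20 it was -0.65 at 96 h. The average was -0.46 with normexp (adjusted p = 0.00221) and -0.33 with probe means (adjusted p = 0.185).

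**Figure D3:**
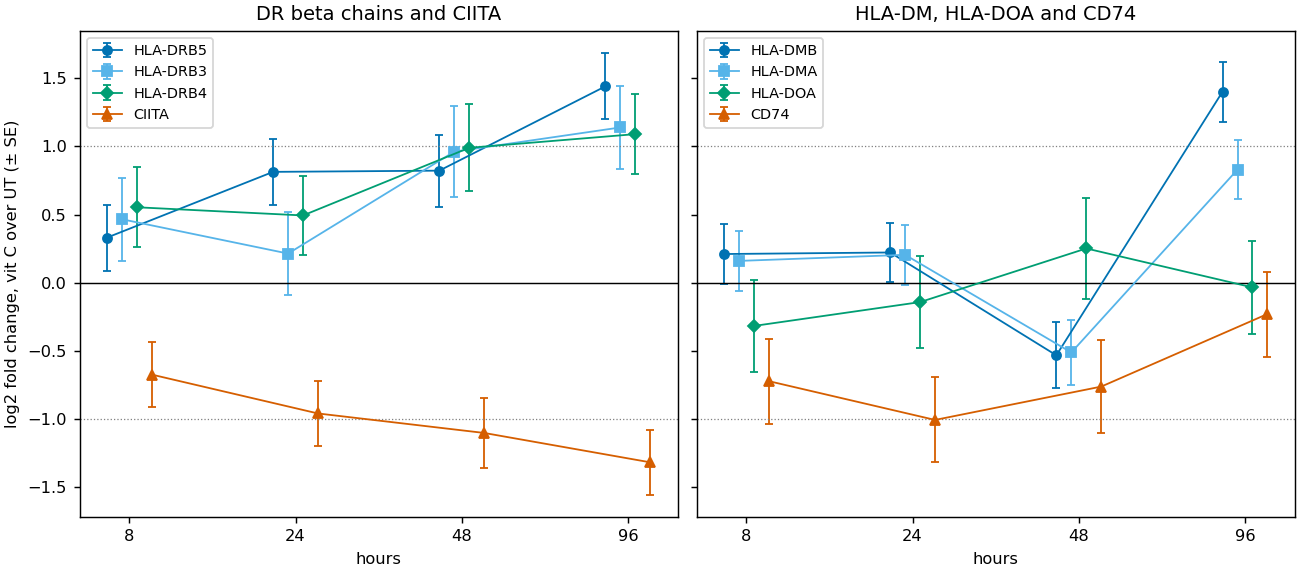
Log2 difference of vit C over UT cells (point) with its standard error (bar) at 8, 24, 48 and 96 h; the DR beta genes and CIITA on the left, HLA-DMB, HLA-DMA, HLA-DOA and CD74 on the right. HLA-DRB5 lies above 0 and CIITA below 0 at all 4 times, while HLA-DMB lies at -0.53 at 48 h and at 1.40 at 96 h.

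CD74, the invariant chain, did not move with the beta chains. The UT values were -1.11 and -1.71 at 8 h, -2.29, -1.38 and -1.55 at 24 h, -2.05 and -2.19 at 48 h, and -2.16, -2.53 and -2.21 at 96 h. The vit C values were -2.12, -2.19 and -2.09 at 8 h, -2.25 and -3.25 at 24 h, -2.77 and -2.99 at 48 h, and -2.69 and -2.37 at 96 h. The groups were apart at 8 and 48 h and overlapped at 24 and 96 h. The difference was -0.72 (adjusted p = 0.358), -1.01 (0.120), -0.76 (0.285) and -0.23 (0.675), and the average of -0.68 ± 0.16 (adjusted p = 0.0129) was under the 2-fold limit. Single arrays moved these values: at 8 h the difference was -0.42 without UT 8 h replicate 1 and -1.02 without replicate 2, at 24 h -1.502 without vit C 24 h replicate 1 and -0.51 without replicate 2, and at 96 h -0.07 without vit C 96 h replicate 1 and -0.39 without replicate 2. With normexp the 48 h difference was -0.29. In the order of its 8 group means UT 8 h was highest and vit C 48 h lowest, and every pair of neighbours in that order overlapped. By Pearson's r over the 19 arrays, which include all groups, the genes most like CD74 were VAC14 (0.847), RSL1D1 (0.835), SYT3 (0.834), VAT1 (0.822) and YLPM1 (0.818). The same choice for HLA-DRA is not given, since its probe was above background on no array. 

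HLA-DMB had the widest range of the genes measured on every array. In UT cells it read -2.05 and -1.96 at 8 h, -3.19, -3.69 and -3.15 at 24 h, -2.80 and -2.88 at 48 h, and -0.79, -0.48 and -0.13 at 96 h. In vit C-treated cells it read -1.88, -1.77 and -1.73, then -3.17 and -3.08, then -3.29 and -3.47, and at 96 h 1.08 and 0.78. Both arms thus had their lowest values at 24 and 48 h and their highest at 96 h, with vit C above UT at 96 h and below it at 48 h without overlap. The difference was 0.21, 0.22, -0.53 and 1.40 ± 0.22 (SE), the last 2.64-fold (adjusted p = 0.00205). With slide as a fixed term, which could not be estimated at 96 h, it was -0.27 at 8 h and -0.26 at 24 h. Over the settings other than left-out arrays, the 48 h difference ran from -0.93 to -0.28. With normexp HLA-DMB was not called at 96 h. HLA-DMB was the only gene of the 10 whose vit C effect differed between time points (F test of the 4 effects, adjusted p = 0.0388, where 0.943% of all probes passed and 4 of the 10 genes, beside 25% of all genes, had an unadjusted p under 0.05). The call was lost with slide as a random block, with either replicate block and with probe means. It held in 4 of the 19 fits that left out an array, those without UT 24 h replicate 2, UT 96 h replicate 1 or 3, or vit C 24 h replicate 1. Without vit C 96 h replicate 1 the 96 h difference was 1.25 (adjusted p = 0.0491), without replicate 2 1.55 (adjusted p = 0.0141) and without UT 96 h replicate 3 1.57. The second HLA-DMB probe was above background on no array.

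HLA-DMA, the partner chain, also had its highest values at 96 h in both arms. UT values were -1.81 and -2.22, then -2.73, -2.47 and -2.21, then -1.70 and -1.89, and at 96 h -0.94, -1.19 and -1.54. The vit C values were -1.87, -2.0 and -1.70, then -2.22 and -2.31, then -2.36 and -2.25, and at 96 h -0.33 and -0.46. At 96 h the groups were apart and the difference was 0.83 (adjusted p = 0.0332), below the 2-fold limit, and 0.46 by the second probe (adjusted p = 0.222). HLA-DOA, the chain of the HLA-DM inhibitor, differed by -0.32, -0.14, 0.25 and -0.03 (adjusted p = 0.957 at 96 h).

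The median of the 7 genes measured on all arrays was 0.21, 0.21, 0.25 and 1.09 on the log2 scale at the successive time points, beside -0.07, -0.02, -0.07 and -0.08 over 17234 genes measured likewise. With CIITA and HLA-DPA1 included where a group measured them, it was 0.16, 0.21, -0.13 and 0.83. Both medians count HLA-DRB3, HLA-DRB4 and HLA-DRB5 separately, although their signals may not be those of separate genes. The average of the 4 times called 0 of the 10 genes, of which 7 entered the test, beside 3.48% of all genes tested. At an unadjusted p under 0.05 limma gave 6 of the 10, beside 36.3% of all genes with a probe above background.

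Each arm was next compared with its own 8 h arrays, which asks how the genes moved over time in culture. At 48 h only 6 of the 10 genes entered the test in each arm, and HLA-DMB was set aside in both for probes of opposite sign. In UT cells 0 of the 10 were called (8.93% of all genes in either direction), with HLA-DMB at -0.84 by its first probe. At an unadjusted p under 0.05 limma gave 1 gene and the t-test 2, beside 30.3% and 34.9% of genes with a probe above background. In vit C-treated cells 0 were called as well (13.1%; 4 by limma and 6 by the t-test at an unadjusted p, beside 39.3% and 46.3%), although among probes well above background HLA-DMB was lower by -1.58 (adjusted p = 0.000109, 7% called lower). At 96 h in UT cells HLA-DMA and HLA-DMB rose (8.93% of all genes were called higher), HLA-DMB by 1.54 (adjusted p = 0.000147) and HLA-DMA by 0.79 and 1.15 with its 2 probes (adjusted p = 0.0180 and 0.00280). The methods' t-test, limma on both groups alone and probe means each called 0 of the 10 genes in this comparison, beside 0.997%, 6.24% and 11.9% of all genes and 16.1% in the test as designed. Without UT 96 h replicate 1 HLA-DMB was set aside, since its second probe then went the other way, with a difference of 1.70 by the first. Within slide 1, which held both UT 8 h arrays and a single UT 96 h array, HLA-DMB differed by 1.21 (adjusted p = 0.0445, with that lone array assumed to vary like the other groups). The DR beta probes of UT cells differed by 0.03 to 0.44 and were not called, and CD74 was -0.89 (adjusted p = 0.0580).
In vit C-treated cells HLA-DMB rose by 2.73, a 6.62-fold difference (adjusted p = 5.58e-07), HLA-DMA by 1.46 and 1.20, and HLA-DRB5 by 1.22 (adjusted p = 0.00177), with 10.9% of all genes called higher. With normexp HLA-DMB was set aside here, since its second probe then went the other way, with a difference of 2.38 by the first. The vit C 8 h arrays lay on another slide than the vit C 96 h arrays and were scanned on another day, so time and slide cannot be told apart in this comparison. HLA-DPA1, a DP alpha chain, was also called, by its second probe, which was above background on both vit C 96 h arrays and on 0 of 3 at 8 h. Its bound fell under 1-fold, so no fold is given; that probe passed through its brighter group alone. The brighter HLA-DPA1 probe differed by 0.22 (adjusted p = 0.603). HLA-DRA was called lower (18.2% of all genes were) on a probe not above background.

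The wider pathway was described through gene lists, each as counts of called genes and as the median log2 difference of the genes measured on every array of a group compared. Of the 16 transcription factors of class II promoters on the array, IRF8, a myeloid interferon regulatory factor, was higher in vit C-treated than in UT cells at 96 h by 1.27 (adjusted p = 0.0348). At that time 2.73% of all genes were called higher and 10.1% lower. The median of the 15 measured was 0.09. IRF4 was called lower, through a dimmer probe, so that 2 of the 16, of which 13 entered the test, were called beside 12.8% of all genes tested. The RFX subunits RFX5 (-0.19), RFXAP (0.34) and RFXANK (-0.60) were not called, and no factor was at 8, 24 or 48 h. In UT cells IRF8 was called lower at 96 h than at 8 h, where 7.19% of all genes were. In vit C-treated cells it was not called between those times.

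Of 16 genes of the interferon-gamma pathway the guanylate binding protein GBP5 rose at 96 h by 1.29 (adjusted p = 0.00484), and GBP1 differed by 1.41 without passing (adjusted p = 0.0504). The median was 0.12. The chemokine CXCL11 was called lower on a probe that was not above background on every array of either group, and IFNG itself was above background on no array. These 2 calls among 16 genes, of which 15 entered the test, stood beside 12.8% of all genes tested. Of 18 endosomal and lysosomal processing genes, legumain (LGMN), an asparaginyl endopeptidase of antigen and CD74 processing, rose at 96 h by 1.70 (adjusted p = 0.0261), and cathepsin H (CTSH) fell at 48 h by 1.11 on the log2 scale (adjusted p = 0.00536). Each was the single call among the 18 at its time, beside 12.8% of all genes tested at 96 h and 3.66% at 48 h. Of the 18, 16 entered the test at 96 h and 13 at 48 h. The list's median at 96 h was 0.27.

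**Figure D4:**
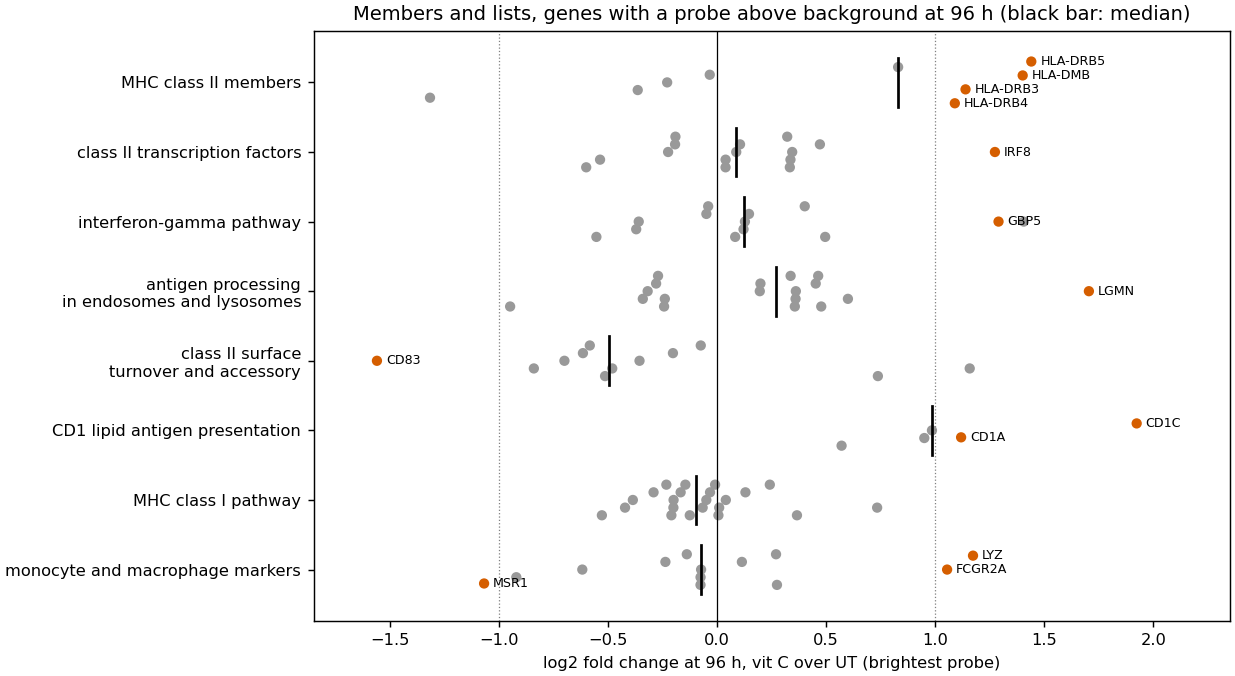
Log2 difference of vit C over UT cells at 96 h for each gene of the 10 and of the related lists; each point is a gene with its brightest probe above background on all arrays of either group, orange where that probe was called, and the black bar is the median of the points (0.83 for the class II genes, where CIITA and HLA-DPA1 are drawn too). LGMN at 1.70 and CD83 at -1.56 are the called genes farthest from 0 in the processing and accessory lists.

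Of 12 genes of class II surface turnover and costimulation, CD83, which stabilises class II at the surface, differed by -1.56 at 96 h and thus fell (adjusted p = 0.000176). CD86, a costimulatory ligand, was called higher through a dimmer probe, and its brightest gave 1.16 (adjusted p = 0.414). The median of the list was -0.50. Of the 22 genes of the MHC class I pathway 0 were called at any of the 4 time points (at 96 h 16 of them entered the test), beside 0.554%, 1.68%, 3.66% and 12.8% of all genes (5.41% at 96 h among probes above background), and their median at 96 h was -0.10. Of the 5 CD1 genes, which present lipids, CD1A rose by 1.12 (adjusted p = 0.00575) and CD1C by 1.92 (adjusted p = 0.000272) at 96 h. CD1B was called higher through a dimmer probe, so that 3 of the 5 were, beside 2.73% of all genes. The list's median was 0.98. In UT cells CD1A and CD1C were also called higher at 48 h than at 8 h, where 5.56% of all genes were, though not at 96 h.

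Cell type markers were read because bulk RNA cannot tell fewer cells of a type from less RNA per cell. All 13 monocyte and macrophage markers on the array were above background at 96 h, with summed signals of 620 to 662 times the 75th percentile in UT and 607 to 684 in vit C-treated cells. LYZ (1.17) and FCGR2A (1.05) were higher and MSR1 (-1.07) lower in vit C-treated cells, 3 of 13, of which 11 entered the test. Beside them, 12.8% of all genes were called at 96 h, 5.41% among probes above background and 3.89% with quantile normalization. In UT cells LYZ was called lower at 96 h than at 8 h, where 7.19% of all genes were, and in vit C-treated cells it was not called between those times. The dendritic cell markers summed to 1.61 to 2.29 in UT and 2.82 to 3.12 in vit C-treated cells at 96 h: CD1C was the called gene above background, CLEC4C, CLEC9A and FCER1A were above background on no array, and CLEC4C and CLEC9A were called lower there. The fibroblast markers summed to 7.29 to 12 and 8.51 to 9.08, with LUM (4.65) and DCN (2.48) higher and FAP (-1.16) lower. COL3A1 was called lower on a dim probe, and COL1A2 was above background on no array. B cell markers summed to 2.10 to 4.33 and 1.72 to 2.03 with 0 of 8 called, T cell markers to 0.292 to 0.314 and 0.316 to 0.329 with CD3D and CD28 called lower but above background on no array. Epithelial markers summed to 1.78 to 3.98 and 3.07 to 3.09, with CDH1, EPCAM and KRT5 on none and EPCAM, listed as TACSTD1 on the array, called lower. The part of these markers in the class II differences was not tested. The 75th percentile signal itself was 806 and 924 on the vit C 96 h arrays and 297 to 639 on the others, and its part was not tested either.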

How the data were processed

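THP-1 RNA was hybridised to 19 Agilent 1-colour arrays. The deposited scanner files hold, per the file headers, intensity values from Feature Extraction 10.5.1.1, background-subtracted by the authors' scanner software. The authors' deposited matrix holds log2 values of the same arrays, shifted to the 75th percentile, and served as an alternative. From the intensities, log2 gProcessedSignal minus each array's 75th percentile was computed over non-control spots, with spots of a probe averaged. Spots marked as outliers were left out, with 177 probes that had no other spot on some array, none of them of the 10 genes, which left 50061. Between 57.5% and 72.8% of probes were well above background per array, and no spot was saturated. The number of arrays limits the precision.

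Differences were tested with limma 3.58.1 (R 4.3.3; the data.table package, version 1.17.8) in 1 fit of 8 group means over 19 arrays with Benjamini-Hochberg adjustment, tested on simulated data. Genes with probes of opposite sign were set aside before adjustment, as in the study's methods. A gene's value is that of its brightest probe. Figures used matplotlib 3.10.9 under Python 3.11.15. The 10 genes, the gene lists and the alternatives were chosen with earlier results of these data known. All 10 genes are named, and of each list the called genes, at most 6 a comparison, by size. Alternatives were the t-test of the methods, a fit of both groups alone, an intensity trend, quantile normalization, normexp, another percentile, a floor, probe filters, probe means, array weights, slide and replicate blocks, the matrix, and each array left out.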

Additional observations from a re-analysis of the deposited data

Results flagged for a closer look

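The vit C effect on HLA-DMB differed between the time points by the F test across the 4 effects (adjusted p = 0.0388): from 8 to 96 h the log2 difference was 0.21, 0.22, -0.53 and 1.40. With slide as a random block, either replicate block or probe means, 0 of the 10 genes passed. With 1 array left out, 16 of the 19 fits gave another number of genes for this test, from 0 to 2, and both vit C 96 h arrays stood on a slide of their own, so this difference and that slide cannot be told apart.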

How the results depend on the processing

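Over 8 single genes (HLA-DRA and HLA-DPA1 were left out), 1483 values kept their direction and their side of the threshold under the alternatives, 30 lost a call, 12 gained one and 35 turned direction, none of the latter called with either direction. Of 6 genes called at 96 h, 0 were called by the methods' t-test and by limma on both groups alone, 2 with normexp (HLA-DRB3 and HLA-DRB5), and 3 with either replicate block. Of 2 called between 96 and 8 h in UT cells, the t-test, the fit of both groups alone and the mean of probes called 0, and normexp, the floor of 20 and slide 1 alone, with a single 96 h array, called 1. Of 5 in vit C-treated cells, normexp called 2 and the floor 3. At 48 h, where none was called, the trend, the floor, only probes above background, opposing probes kept and array weights gave 1 and quantile normalization 2. For vit C-treated cells between 48 and 8 h, 0 became 1 with the percentile over detected probes, only probes above background, probe means, array weights, slide as a random block and the replicate block across time points, and 2 with opposing probes kept. For the average, 0 became 1 with only probes above background and with opposing probes kept (CIITA). The F test's 1 gene became 0 with probe means, slide as a random block and both replicate blocks, and 2 with array weights. Leaving out 1 array at a time gave 2 to 5 genes at 96 h (2 without either vit C 96 h array), 1 to 2 between 96 and 8 h in UT cells (1 without UT 8 h replicate 2, and HLA-DPA1 in place of HLA-DMB without UT 96 h replicate 1), 3 to 5 in vit C-treated cells (3 without vit C 96 h replicate 2), 0 to 1 between 48 and 8 h there (1 without vit C 8 h replicate 2 or 3), 0 to 1 for the average (1 without vit C 24 h replicate 2) and 0 to 2 for the F test. The deviations of same-numbered arrays from their group means correlated at r -0.34 to 0.14. Groups of 2 or 3 arrays are too small for these values to show whether the replicate numbers pair the arrays. The numbers are those of the sample titles; the descriptions count the 48 h arrays as 2 and 3 in both arms, which keeps the 48 h pairs but would change the block across time points. The slide as a fixed term could not be estimated at 96 h, for the average or for the F test; for HLA-DRB5 it gave 0.62 at 8 h and 1.09 at 48 h (adjusted p = 0.702 and 0.520). The cause of these differences was not tested. Signals near background, as for CIITA and HLA-DRA, limit what can be measured.

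The log2 differences that turned direction were these. With normexp HLA-DMB was -0.067 at 24 h, HLA-DRB5 -0.014 between 48 and 8 h in UT cells, and CIITA 0.044 between 96 and 8 h in UT cells and 0.11 between 48 and 8 h in vit C-treated cells. With probe means HLA-DMB was -0.25 at 24 h and 0.13 between 48 and 8 h in UT cells, and CIITA 0.34 between 48 and 8 h in vit C-treated cells. With probe means HLA-DOA was -0.26 at 48 h, 0.15 and 0.29 in UT cells at 48 and 96 h against 8 h, and -0.029 in vit C-treated cells at 48 h against 8 h. With slide as a fixed term HLA-DMB was -0.27 at 8 h and -0.26 at 24 h, HLA-DOA 0.012 and 0.19 at those times, and CIITA 0.11 between 96 and 8 h in UT cells, as within slide 1. HLA-DOA was 0.057 at 96 h with the percentile over detected probes and 0.029 with the replicate block across time points, 0.069 at 24 h with that within time points, and between 96 and 8 h in vit C-treated cells 0.0053 with array weights and 0.026 with the replicate block across time points. With 1 array left out, HLA-DOA ran from -0.40 to 0.069 at 24 h, -0.33 to 0.83 at 48 h, -0.22 to 0.076 at 96 h, -0.21 to 0.085 on average, -0.94 to 0.22 in UT cells at 48 h against 8 h and -0.19 to 0.12 in vit C-treated cells at 96 h against 8 h. HLA-DMA ran from -0.047 to 0.37 at 8 h. In UT cells HLA-DRB4 ran from -0.002 to 0.30 and HLA-DRB5 from -0.0013 to 0.20 at 48 h against 8 h, and HLA-DRB3 from -0.028 to 0.56 and CIITA from -0.37 to 0.042 at 96 h against 8 h.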

Other observations

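The genes whose signals followed HLA-DRB5 most closely over the 19 arrays, by Pearson's r among 17234 genes measured on all arrays, were HLA-DQB1 (0.94), a DQ beta chain, the transcript M27126 (0.94), a probe set for the 7SL RNA (0.91) and TSPAN4 (0.91). For HLA-DMB they were VANGL1 (0.96), TP53AP1 (0.95) and PGM1 (0.94) among named genes. The choice of these genes was made after their values were seen, the arrays include all groups, and no test was made.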
